A study of Mus musculus with 8 samples.

Results

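Ribosome biogenesis and nucleolar genes were followed across the bulk RNA-seq of splenic B cells from diseased mice. The set holds 35 genes chosen by symbol as typical targets of the transcription factor MYC. Of these, 34 had a row among the 24902 gene symbols of the counts table and 33 were tested, out of 13173 genes tested in all. Utp4 had no row and was not analysed here. Wdr74 held 0 counts in 7 of 8 mice and 1 count in Eµ-PRMT5/TCL1 mouse 3, and did not pass the filter on low counts.

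The 8 mice were diseased animals taken at early removal criteria (ERC). The genotypes were Eµ-PRMT5 in 4 mice, Eµ-PRMT5/TCL1 in 3 and Eµ-TCL1 in 1, with a C57BL/6N strain in the labels and no age given there per mouse. In Eµ-PRMT5 mice a human PRMT5 cDNA is driven in immature and mature B cells by a VH promoter and the IgH Eµ enhancer. Eµ-TCL1 mice carry human TCL1 under the same kind of enhancer and develop a disease like chronic lymphocytic leukemia (CLL), and the double transgenic Eµ-PRMT5/TCL1 mice came from crossing both lines. All groups carry a transgene expressed in B cells, WT mice were not analysed here, and PRMT5 mice descend from several founder lines. The title of Eµ-PRMT5 mouse 2 carries the name of a founder. For the other mice no line was given mouse by mouse in the sources used here. The study crossed the line it chose for full characterization to Eµ-TCL1 mice, and also reports crosses from other founder lines. An effect of the line was not tested. Pan-B cells were isolated from the spleen, so each value is a bulk average over all cells that passed the isolation. Mice within a group are separate animals, but the Eµ-TCL1 group is 1 animal, so a comparison with it only asks whether that mouse lay outside the spread of the replicated groups. By their titles, Eµ-PRMT5 mice 3 and 4 carry animal numbers for which the study describes unlike histology. Mouse 3 had anaplastic large lymphocytes with bland histiocytes, and mouse 4 had sheets of small lymphocytes, as in CLL. Whether this goes with the levels given below was not tested.

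Ribosomes are assembled in the nucleolus. RNA polymerase I transcribes a long precursor of the ribosomal RNA, small nucleolar ribonucleoproteins (snoRNPs) place methyl and pseudouridine marks on it and guide its folding, and separate sets of maturation factors then cut and trim the RNAs of the small (40S) and large (60S) subunit. MYC is known to raise transcription of many of these genes, which is why they are often read as a sign of MYC activity and growth in B cell lymphomas. PRMT5, which places symmetric dimethylarginine on proteins, has RNA-binding proteins of the nucleus, fibrillarin among them, as known substrates.

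The canonical E-box CACGTG, the motif bound by MYC with its partner MAX, was searched in the RefSeq promoter windows of the members, because the set was defined by its link to MYC. The motif reads the same on both strands, and each window runs from 250 bases before to 50 bases after the annotated start. Of 30 members with a window, 7 held the motif (23.3%), against 2187 of 27025 gene symbols (8.09%). The latter are all symbols with a window, tested here or not, and no share over the tested genes was taken. The members were chosen as typical MYC targets, so a higher share can come with the choice. A match is a description of these letters and not of a bound site. The 6 of these members that were measured are shown as 30 bases on the strand of the gene, with the E-box in capitals.
Mybbp1a: aagtgactgtcttctgagccCACGTGtttg
Nop2: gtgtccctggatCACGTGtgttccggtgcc
Pes1: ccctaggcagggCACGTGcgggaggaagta
Tsr1: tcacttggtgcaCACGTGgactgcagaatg
Utp20: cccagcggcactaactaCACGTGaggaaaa
Wdr43: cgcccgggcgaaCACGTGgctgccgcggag
In GRCm38.p6 these lie at chr11:72441347-72441376 (Mybbp1a), chr6:125131811-125131840 (Nop2), chr11:3963965-3963994 (Pes1), chr11:74898092-74898121 (Tsr1), chr10:88826765-88826794 on the minus strand (Utp20) and chr17:71616220-71616249 (Wdr43). The others are on the plus strand. Starts here are those of the RefSeq windows. For Wdr43 the GENCODE gene begins further upstream, at chr17:71615895. The E-box of Nop2 began 60 bases before the RefSeq start. In the other 5 genes it lay after the start, beginning at base 3 in Pes1, base 18 in Wdr43, base 25 in Tsr1, base 38 in Utp20 and base 41 in Mybbp1a.

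Counts on genes ran from 3356297 in the Eµ-TCL1 mouse to 10252426 in Eµ-PRMT5 mouse 4. Eµ-PRMT5 mouse 1 had a value for 16379 symbols and the others for 20411 to 21475. Eµ-PRMT5 mouse 4 had the lowest mean of 11 B cell markers among the 8 mice, at 5.95 log2 CPM against 6.89 to 8.40 in the rest, together with 5.79 for 6 erythroid markers against 1.70 to 5.05. Eµ-PRMT5 mouse 3 had the highest T cell markers, with a mean of 5.96 over 6 genes against 3.01 to 4.01 elsewhere. In bulk samples fewer cells of a type and less RNA per cell cannot be told apart.

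The members were highest in a pair of Eµ-PRMT5 mice and lowest in the Eµ-TCL1 mouse. Levels are CPM, counts scaled to a common library total with TMM factors. This scaling uses 1 factor per mouse and assumes that most genes do not differ between mice. The mean over the 33 members was taken on the log2 scale. That mean was 6.61, 7.63, 6.71 and 7.78 log2 CPM in Eµ-PRMT5 mice 1 to 4, 6.61, 6.83 and 7.15 with both transgenes and 6.04 with TCL1 alone. In every sentence of values the mice of a genotype follow their numbers. The 3 double transgenic mice thus lay inside the range of PRMT5 alone (6.605 to 7.78), and the mouse with TCL1 alone lay below all 7 others. Summed over the members, the same mice were lowest and highest, from 2683 CPM in the Eµ-TCL1 mouse to 10597 CPM in Eµ-PRMT5 mouse 4.

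**Figure D1:**
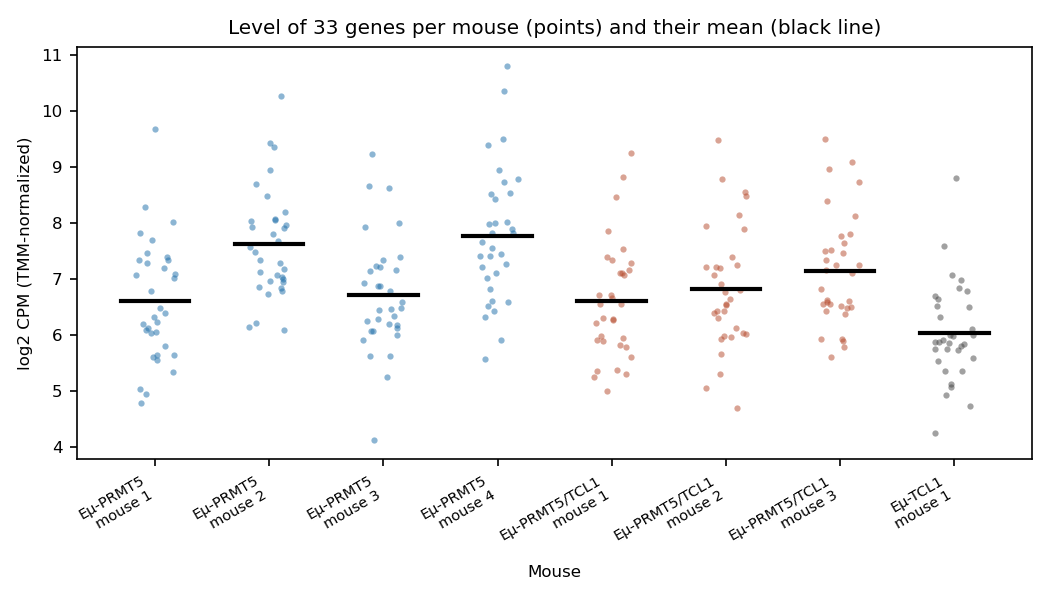
TMM-normalized log2 CPM (vertical axis) of the 33 tested ribosome biogenesis genes (points) in each of 8 mice (horizontal axis), with the mean of the 33 as a black line. The line sits at 7.63 and 7.78 in Eµ-PRMT5 mice 2 and 4, between 6.61 and 7.15 in the 5 other mice that carry PRMT5, and at 6.04 in the last mouse, Eµ-TCL1.

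Gene by gene, the lowest of the 8 values belonged to the Eµ-TCL1 mouse for 23 of 33 members, against 14.2% of all genes tested. Eµ-PRMT5 mouse 1 was lowest for 5 members and Eµ-PRMT5/TCL1 mouse 2 for 3. The 2 left, Rrs1 and Utp20, were lowest in Eµ-PRMT5 mouse 3 and in Eµ-PRMT5/TCL1 mouse 1. The highest value was in Eµ-PRMT5 mouse 4 for 20 members and in Eµ-PRMT5 mouse 2 for 10, where all genes gave 20.1% and 8.65%. Nop14 and Ddx18 were highest in Eµ-PRMT5 mouse 1 and Polr1a in Eµ-PRMT5/TCL1 mouse 3. With RLE factors, upper-quartile factors and library size alone, chosen after seeing the data, the Eµ-TCL1 mouse was lowest for 23, 20 and 19 members, where all genes gave 16.8%, 10.8% and 8.18%. The highest mouse depended on the scaling: Eµ-PRMT5 mouse 4 held it for 21, 16 and 14 members and Eµ-PRMT5 mouse 2 for 9, 14 and 17 in the same order of scalings. The Eµ-PRMT5 mice were the more spread group: the highest mouse was a median of 2.47 times the lowest over the members, and 1.45 times among the double transgenic mice. All genes gave 2.82 and 1.62 times.

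**Figure D2:**
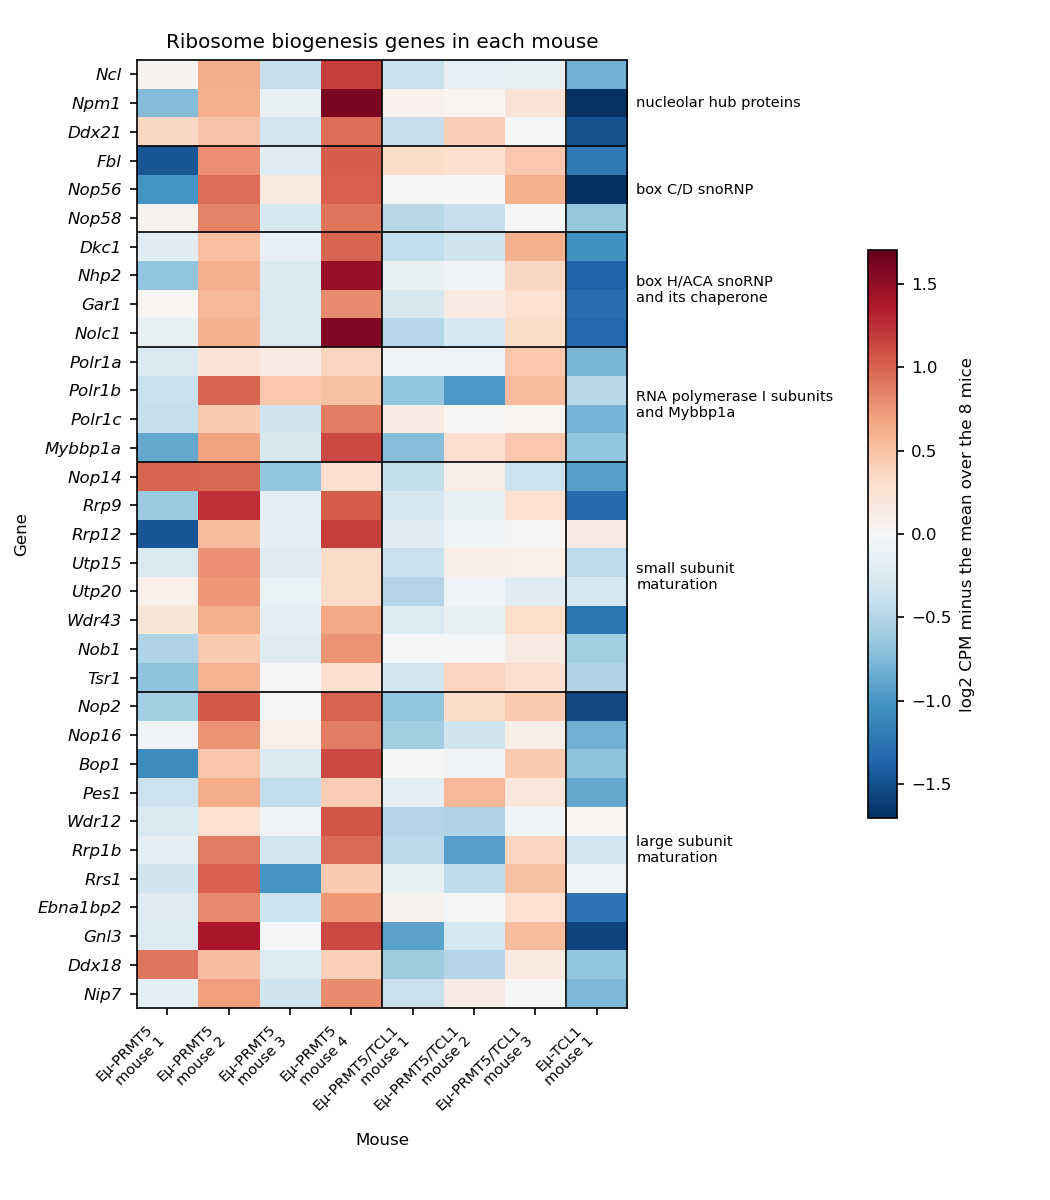
Each cell is a gene's log2 CPM in a mouse minus that gene's mean over the 8 mice, with the 33 genes ordered by role (rows) and mice by genotype (columns). Red cells fill the columns of Eµ-PRMT5 mice 2 and 4, and the Eµ-TCL1 column is the lowest of its row for 23 genes.

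All 3 nucleolar hub proteins were lowest in the Eµ-TCL1 mouse and highest in Eµ-PRMT5 mouse 4. Npm1 (nucleophosmin), which shapes the nucleolus and carries preribosomal particles, was measured at 259, 661, 395 and 1320.1 CPM in Eµ-PRMT5 mice 1 to 4, at 456, 443 and 504 CPM in Eµ-PRMT5/TCL1 mice 1 to 3 and at 134 CPM in the mouse with TCL1 alone. Its mean was 659 ± 472 CPM (SD, n = 4) in Eµ-PRMT5 and 468 ± 32.2 CPM (SD, n = 3) in double transgenic mice, so the spread of the first group covered the second. The Eµ-TCL1 value of Npm1 rested on 496 counts, with an exact 95% binomial interval of 123 to 146 CPM, below every other mouse. Ddx21, an RNA helicase of the nucleolus, was at 227, 249, 143 and 345 CPM with PRMT5 alone, 135, 239 and 176 CPM with both transgenes and 63.8 CPM with TCL1 alone. Here the Eµ-TCL1 mouse was again below all others, and the Eµ-PRMT5 and double transgenic values were interleaved. Ncl (nucleolin), an abundant RNA-binding protein of the nucleolus, was at 824, 1237, 605 and 1804 CPM with PRMT5 alone, 611, 719 and 726 CPM with both transgenes and 449.9 CPM with TCL1 alone. Npm1 had 4 annotated pseudogenes with near-identical sequence, so reads could have been split between them.

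Box C/D snoRNPs, which guide ribose methylation, were represented by 3 core proteins. Nop56 was at 176, 692, 405 and 730.0 CPM in Eµ-PRMT5 mice 1 to 4, at 354, 359.6 and 546 CPM in Eµ-PRMT5/TCL1 mice 1 to 3 and at 110.0 CPM in the mouse with TCL1 alone. Eµ-PRMT5 mouse 1, at 176 CPM, was the nearest to the Eµ-TCL1 mouse, and the remaining 6 mice were all at 354 CPM or more. Fbl (fibrillarin), the methyltransferase of the particle, was at 40.2, 191, 95.97 and 226 CPM with PRMT5 alone, 138, 134 and 153 CPM with both transgenes and 47.9 CPM with TCL1 alone. For Fbl the lowest mouse was Eµ-PRMT5 mouse 1 and not the Eµ-TCL1 mouse, and the double transgenic mice lay close together at 142 ± 9.65 CPM (SD, n = 3). Nop58, the partner of Nop56, was at 207, 357, 161 and 375 CPM with PRMT5 alone, 144, 152 and 199.9 CPM with both transgenes and 127 CPM with TCL1 alone. The exons of Nop56 overlap Idh3b on the other strand and it had 4 similar pseudogenes, so its values are uncertain to that extent, since the sources used here do not say whether strand was used in counting.

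Box H/ACA snoRNPs, which guide pseudouridylation, were represented by 3 of their core proteins and the chaperone Nolc1. These 4 were lowest in the Eµ-TCL1 mouse and highest in Eµ-PRMT5 mouse 4. Nhp2 was at 110.2, 271, 149 and 496 CPM in Eµ-PRMT5 mice 1 to 4, at 162, 169 and 225 CPM in Eµ-PRMT5/TCL1 mice 1 to 3 and at 68.9 CPM in the mouse with TCL1 alone. Gar1 was at 47.1, 68.2, 38.1 and 80.1 CPM with PRMT5 alone, 38.04, 50.6 and 55.01 CPM with both transgenes and 18.7 CPM with TCL1 alone. The Eµ-TCL1 value of Gar1 came from 69 counts, with an exact 95% interval of 14.5 to 23.6 CPM, and all 7 other mice were above it. Nolc1, which assists snoRNP assembly and travels between nucleolus and Cajal bodies, was at 134, 225, 123 and 442 CPM with PRMT5 alone, 105, 120.0 and 183 CPM with both transgenes and 58.4 CPM with TCL1 alone. Dkc1 (dyskerin), the pseudouridine synthase, was at 163, 264, 168 and 369 CPM with PRMT5 alone, 138, 146 and 280.4 CPM with both transgenes and 90.3 CPM with TCL1 alone. Intervals of this kind cover counting error only, since no molecular identifiers are described for the reads.

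The RNA polymerase I group did not share 1 order between mice. Polr1a, the largest subunit, was at 83.8, 116, 110.3 and 130.2 CPM in Eµ-PRMT5 mice 1 to 4, at 94.4, 93.9 and 138 CPM in Eµ-PRMT5/TCL1 mice 1 to 3 and at 57.9 CPM in the mouse with TCL1 alone. Its Eµ-PRMT5 mean of 110.1 ± 19.4 CPM (SD, n = 4) and double transgenic mean of 109 ± 25.2 CPM (SD, n = 3) were nearly equal. Polr1b, the second-largest subunit, was at 49.9, 129, 89.6 and 91.7 CPM with PRMT5 alone, 40.8, 32.9 and 94.5 CPM with both transgenes and 46.5 CPM with TCL1 alone. Here the Eµ-TCL1 mouse lay above Eµ-PRMT5/TCL1 mice 1 and 2. Polr1c, a subunit shared with RNA polymerase III, was at 69.8, 125, 72.3 and 170.0 CPM with PRMT5 alone, 101, 93.2 and 93.7 CPM with both transgenes and 52.99 CPM with TCL1 alone. Mybbp1a, a nucleolar protein that binds the MYB oncoprotein and whose window holds an E-box, was at 169, 496, 256 and 673 CPM with PRMT5 alone, 187, 378 and 426 CPM with both transgenes and 194 CPM with TCL1 alone. Its lowest values were in Eµ-PRMT5 mouse 1 and in mouse 1 of the double transgenics, followed by the Eµ-TCL1 mouse.

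Factors of small subunit maturation differed among themselves. Wdr43, a component of the early 90S particle with an E-box just after its RefSeq start, was at 314, 414, 245 and 429.6 CPM in Eµ-PRMT5 mice 1 to 4, at 231, 249 and 335 CPM in Eµ-PRMT5/TCL1 mice 1 to 3 and at 115 CPM in the mouse with TCL1 alone. The Eµ-TCL1 mouse lay well below the other 7. Rrp9, which binds the U3 snoRNA, was at 48.7, 179, 67.02 and 155 CPM with PRMT5 alone, 61.3, 69.5 and 90.4 CPM with both transgenes and 30.3 CPM with TCL1 alone. Nop14, a part of the same early particle, was at 157, 156, 49.5 and 96.6 CPM with PRMT5 alone, 59.5, 85.8 and 61.2 CPM with both transgenes and 40.8 CPM with TCL1 alone. Nop14 was high in Eµ-PRMT5 mice 1 and 2 alike, unlike most members, and lowest in the Eµ-TCL1 mouse. Its exons overlap the antisense gene Gm15522, and those of Rrp9 overlap Parp3.

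Rrp12, needed for export of the subunits, did not follow the order of the set, at 32.5, 131, 80.5 and 203 CPM with PRMT5 alone, 78.4, 86.2 and 91.4 CPM with both transgenes and 99.5 CPM with TCL1 alone. The Eµ-TCL1 mouse was the third highest for it and Eµ-PRMT5 mouse 1 was the lowest. Utp20 and Tsr1 carry an E-box. Utp20, a large scaffold of the early particle, was at 73.5, 115, 63.6 and 86.2 CPM with PRMT5 alone, 48.7, 65.9 and 61.01 CPM with both transgenes and 55.96 CPM with TCL1 alone. Tsr1, which acts late on the 40S precursor, was at 30.6, 74.6, 49.01 and 60.2 CPM with PRMT5 alone, 39.5, 64.3 and 59.6 CPM with both transgenes and 34.6 CPM with TCL1 alone. Their Eµ-TCL1 values lay inside the range of the other mice. Utp15, of the subcomplex that joins the precursor first, was at 65.4, 134, 66.8 and 97.9 CPM with PRMT5 alone, 60.2, 84.2 and 83.1 CPM with both transgenes and 57.05 CPM with TCL1 alone. Nob1, the nuclease that makes the mature end of 18S rRNA, was at 56.01, 110.3, 69.98 and 138 CPM with PRMT5 alone, 78.7, 78.9 and 89.3 CPM with both transgenes and 53.8 CPM with TCL1 alone. For Utp15 and Nob1 the Eµ-TCL1 mouse was the lowest, with Eµ-PRMT5/TCL1 mouse 1 and Eµ-PRMT5 mouse 1 close above it.

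Of the 11 tested factors of large subunit maturation, 4 are given first. Gnl3 (nucleostemin), a GTPase of the nucleolus found in dividing cells, was at 66.2, 205, 76.1 and 171 CPM in Eµ-PRMT5 mice 1 to 4, at 41.3, 63.3 and 113 CPM in Eµ-PRMT5/TCL1 mice 1 to 3 and at 26.2 CPM in the mouse with TCL1 alone. Its highest value was in Eµ-PRMT5 mouse 2 and its lowest in the Eµ-TCL1 mouse. Nop2, an rRNA methyltransferase whose window holds an E-box upstream of the start, was at 79.96, 246, 117 and 238 CPM with PRMT5 alone, 74.4, 148 and 163 CPM with both transgenes and 40.8 CPM with TCL1 alone. Ebna1bp2, a factor of early 60S assembly, was at 129.7, 267, 117 and 253 CPM with PRMT5 alone, 157, 149 and 180.4 CPM with both transgenes and 62.99 CPM with TCL1 alone. Nop16, another 60S assembly factor, was at 136, 243, 150.5 and 260.1 CPM with PRMT5 alone, 94.1, 112 and 153 CPM with both transgenes and 80.3 CPM with TCL1 alone. In these 4 genes the Eµ-TCL1 mouse was the lowest of 8. They are the large subunit factors at an unadjusted p under 0.05 by edgeR in Eµ-PRMT5 against that mouse. Their shared lowest mouse therefore follows largely from the choice.

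Pes1, Bop1 and Wdr12 form the PeBoW complex, which is needed for 28S rRNA processing, and they did not share 1 order. Pes1, with an E-box just past its start, was at 148, 294, 142 and 256 CPM with PRMT5 alone, 169, 283 and 217 CPM with both transgenes and 104 CPM with TCL1 alone. Bop1 was at 49.9, 145, 87.8 and 228 CPM with PRMT5 alone, 105, 100.1 and 143 CPM with both transgenes and 64.1 CPM with TCL1 alone. Wdr12 was at 75.1, 107, 87.1 and 189 CPM with PRMT5 alone, 63.1, 62.6 and 86.2 CPM with both transgenes and 91.9 CPM with TCL1 alone. The Eµ-TCL1 mouse was the third highest for Wdr12, the lowest for Pes1 and the second lowest for Bop1. Rrs1, which brings 5S ribonucleoprotein into the 60S precursor, was at 27.4, 70.3, 17.1 and 47.3 CPM with PRMT5 alone, 31.6, 25.6 and 48.9 CPM with both transgenes and 33.3 CPM with TCL1 alone, with the Eµ-TCL1 mouse in the middle.

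The last 3 large subunit factors were lower in Eµ-PRMT5 mouse 3 than in mice 2 and 4 of the same genotype. Rrp1b, a nucleolar partner of protein phosphatase 1, was at 67.99, 141, 60.4 and 149 CPM with PRMT5 alone, 55.3, 39.3 and 97.9 CPM with both transgenes and 60.3 CPM with TCL1 alone. Ddx18, an RNA helicase, was at 162, 124, 73.2 and 114 CPM with PRMT5 alone, 56.2, 60.9 and 96.3 CPM with both transgenes and 53.5 CPM with TCL1 alone. Nip7, which is needed for 60S assembly, was at 88.9, 163, 78.4 and 174 CPM with PRMT5 alone, 76.7, 109 and 98.7 CPM with both transgenes and 58.7 CPM with TCL1 alone. Ddx18 and Nip7 were lowest in the Eµ-TCL1 mouse, and Rrp1b in Eµ-PRMT5/TCL1 mouse 2. Pes1 had 2 similar pseudogenes, as had Ddx18. In all, 8 members had a similar gene. Besides these and Npm1 and Nop56, they were Ddx21 with a pseudogene, Fbl with a pseudogene and Tulp4, Wdr12 with a pseudogene and Vmn1r88, and Tsr1 with Srr. Reads of these members could have been split in the same way.

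Per kilobase of annotated exons, the mean level over the 8 mice was highest for Npm1, at 257 CPM per kb, Nop56, at 221, and Nhp2, at 198. It was lowest for Utp20, at 8.08, and Wdr12, at 8.97 CPM per kb. These lengths join the exons of all coding transcripts of a gene, so the order of neighbours is approximate.

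Eµ-PRMT5/TCL1 against Eµ-PRMT5 mice asks whether adding TCL1 to PRMT5 goes with a different level of these genes at ERC. No member passed the test. The edgeR quasi-likelihood test, fitted on all genes with 1 model over the 3 groups, called 0 of 33 members at an adjusted p under 0.05, and 0.0% of all genes. At an unadjusted p under 0.05, 0 members were higher and 0 lower, against 0.957% and 1.21% of all genes. DESeq2 called 4 of 13173 genes and 0 members, with 0 members at an unadjusted p under 0.05. Nonetheless 30 of 33 members had a log2 fold change below 0, with a median of -0.39, where all genes had a median of -0.09 and 40.6% of them were above 0. The difference of the set means was -0.32 log2 CPM, against an SD of 0.61 among the 4 Eµ-PRMT5 mice and 0.27 among the 3 double transgenic mice, so it was smaller than the spread between mice of the first group.

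The lowest fold changes belonged to Gnl3 at -0.83 ± 0.48 (log2 ± SE), Nolc1 at -0.76 ± 0.47 and Nop14 at -0.74 ± 0.42, and the highest to Pes1 at 0.087 ± 0.37, Fbl at 0.034 ± 0.49 and Tsr1 at 0.023 ± 0.38. All were within 2 SE of 0. No member had all 3 double transgenic mice below all 4 Eµ-PRMT5 mice or all above them, where all genes gave 1.59% and 1.35%. The difference of the set means went to -0.12 without Eµ-PRMT5 mouse 4 and to -0.49 without Eµ-PRMT5 mouse 1. When Eµ-PRMT5 mouse 3 was left out, 5 members were lower at an unadjusted p under 0.05 (Ddx18, Ncl, Nop14, Nop16 and Nop58), against 2.65% of all genes. Without Eµ-PRMT5/TCL1 mouse 3 there were 4 (Ddx18, Gnl3, Polr1b and Rrp1b), against 0.897%, and without Eµ-PRMT5 mouse 1 there were 3 (Gnl3, Nop16 and Wdr12), against 1.02%. None of these passed after adjustment.

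Eµ-PRMT5/TCL1 against the Eµ-TCL1 mouse asks what PRMT5 adds to TCL1. Of the 33 members, 31 had a log2 fold change above 0, against 46.6% of all genes, with a median of 0.85 against -0.07 for all genes. After adjustment 0 members and 0.0% of all genes passed in edgeR, and the smallest adjusted p of a member was 0.778. DESeq2 called 16 of 13173 genes and 0 members, with 9 members higher at an unadjusted p under 0.05, against 3.61% of all genes. In edgeR 6 members were higher at an unadjusted p under 0.05, against 1.75% of all genes, and 0 lower, against 4.33%. These were Nop56 at 1.93 ± 0.80 (log2 ± SE), Nop2 at 1.65 ± 0.75, Ddx21 at 1.53 ± 0.62, Ebna1bp2 at 1.36 ± 0.62, Gar1 at 1.36 ± 0.61 and Wdr43 at 1.25 ± 0.56. Nop2 and Wdr43 are among the 6 genes with an E-box shown above, and the other 4 of those genes were not at that level.

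Npm1 was the second largest in size, at 1.80 ± 0.85, but missed that unadjusted level. Wdr12 at -0.38 ± 0.56 and Rrp12 at -0.22 ± 0.74 were the only members below 0, and Utp20 was next at 0.065 ± 0.50. The Eµ-TCL1 mouse lay below all 3 double transgenic mice for 26 members, against 27.6% of all genes. The count of 6 became 1 without Eµ-PRMT5/TCL1 mouse 2 (Nop56, with 1.14% of all genes) or without mouse 3 (Ddx21, with 1.55%), and 10 without Eµ-PRMT5 mouse 1 (3.16%). It was 16 when only these 2 groups were fitted (8.68% of all genes) and 2 by library size alone (Ddx21 and Nop56, with 1.04%).

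Eµ-PRMT5 against the Eµ-TCL1 mouse compares the single transgenes, with the same Eµ-TCL1 mouse as control, so its values are not independent of those just given. All 33 members had a log2 fold change above 0, against 51.9% of all genes, with a median of 1.14 against 0.04 for all genes. Again 0 members and 0.0% of all genes passed after adjustment in edgeR, with 0.709 as the smallest adjusted p of a member. DESeq2 called 18 of 13173 genes and 0 members, with 17 members higher at an unadjusted p under 0.05, against 4.9% of all genes. At that level edgeR had 13 members higher, against 1.96% of all genes, and 0 lower, against 4.82%. By size they were led by Gnl3 at 2.30 ± 0.83 (log2 ± SE), Npm1 at 2.30 ± 0.87, Nop56 at 2.19 ± 0.81 and Nop2 at 2.06 ± 0.76. Ddx21, at 1.92 ± 0.63, had the smallest p of the members.

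The others at that level were Nolc1 at 1.98 ± 0.78, Nhp2 at 1.90 ± 0.80, Rrp9 at 1.89 ± 0.76, Gar1 at 1.65 ± 0.61, Wdr43 at 1.61 ± 0.56, Ebna1bp2 at 1.61 ± 0.61, Nop14 at 1.49 ± 0.67 and Nop16 at 1.30 ± 0.57. The smallest differences belonged to Rrp12 at 0.17 ± 0.73, Rrs1 at 0.29 ± 0.72 and Wdr12 at 0.32 ± 0.56, each within its SE of 0. By role, the nucleolar hub proteins were at a median of 1.92, box H/ACA proteins at 1.77, box C/D proteins at 1.53, large subunit factors at 1.11, the RNA polymerase I group at 1.00 and small subunit factors at 0.74. For 26 members all 4 Eµ-PRMT5 mice lay above the Eµ-TCL1 mouse, against 17.9% of all genes. The count of 13 became 20 without Eµ-PRMT5 mouse 1, with 4.51% of all genes.

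**Figure D3:**
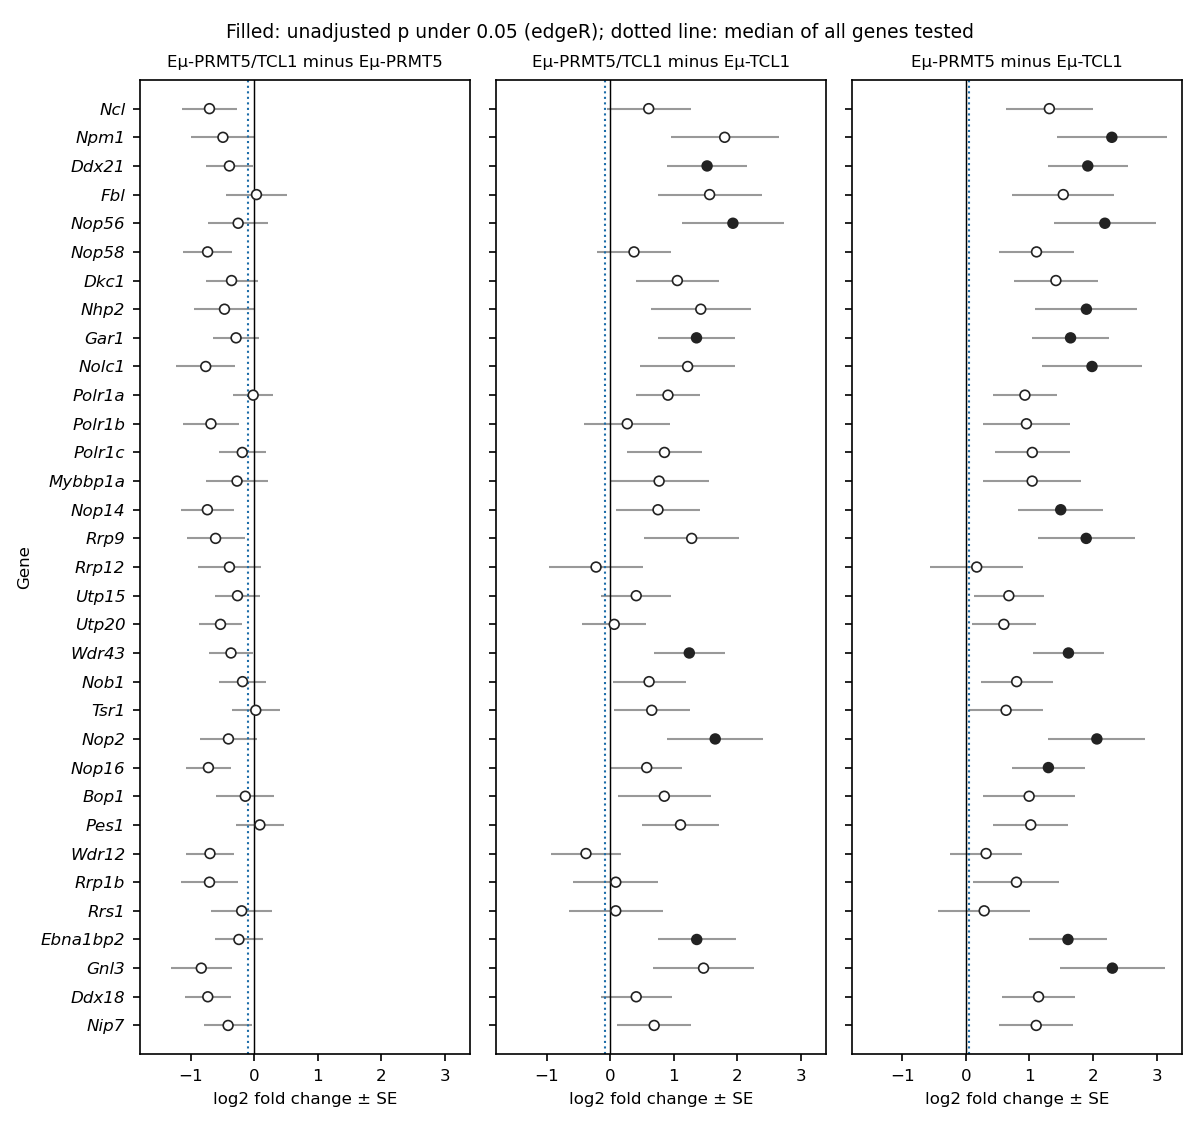
Log2 fold change ± SE of the 33 genes (rows, by role) in the 3 comparisons, with filled points for an unadjusted p under 0.05 by edgeR and a dotted line at the median of all genes tested. No point is filled in Eµ-PRMT5/TCL1 minus Eµ-PRMT5, 6 are in Eµ-PRMT5/TCL1 minus Eµ-TCL1 and 13 in Eµ-PRMT5 minus Eµ-TCL1, and no gene passed after adjustment.

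The choice of scaling moved the comparisons with the Eµ-TCL1 mouse as a whole. The median of all genes in Eµ-PRMT5 against Eµ-TCL1 ran from -0.21 by library size alone to 0.14 with RLE factors, and in Eµ-PRMT5/TCL1 against Eµ-TCL1 from -0.30 to 0.01. Relative to that median the members stood higher by 1.07 to 1.11 and by 0.93 under the 4 scalings. The number of members above 0 ran from 32 to 33 in the first and from 28 to 31 in the second, and from 3 to 4 in Eµ-PRMT5/TCL1 against Eµ-PRMT5.

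Myc itself, the transcription factor named in the choice of the set, was at 55.8, 368, 267 and 211 CPM in Eµ-PRMT5 mice 1 to 4, at 144, 219 and 474 CPM in Eµ-PRMT5/TCL1 mice 1 to 3 and at 84.6 CPM in the mouse with TCL1 alone. Its highest value was in Eµ-PRMT5/TCL1 mouse 3 and its lowest in Eµ-PRMT5 mouse 1, which had less of it than the Eµ-TCL1 mouse. The orders of Myc and of the members were alike in part. Eµ-PRMT5 mouse 1, Eµ-PRMT5/TCL1 mouse 1 and the Eµ-TCL1 mouse lay below all others for both. Eµ-PRMT5 mouse 4, among the 2 highest for the members, was the fifth for Myc. A link between the level of Myc and that of the members was not tested. The log2 fold changes of Myc were 0.31 ± 0.56, 1.72 ± 0.96 and 1.41 ± 0.92 (± SE) for the 3 comparisons in the order given above, with edgeR adjusted p of 1.00, 0.778 and 0.714. Max, the partner of MYC, was at 168, 122, 115 and 114 CPM with PRMT5 alone, 124, 134 and 109 CPM with both transgenes and 107 CPM with TCL1 alone. Mycn had no value in Eµ-PRMT5 mice 1 and 4 and 8 to 62 counts in the other mice, and was not tested.

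Mouse Prmt5 was at 128, 171, 62.7 and 235 CPM with PRMT5 alone, 110.0, 115 and 126 CPM with both transgenes and 79.5 CPM with TCL1 alone. The human transgene has no row of its own here, and whether its reads were counted at mouse Prmt5 was not tested. Eµ-PRMT5 mouse 4 was highest and Eµ-PRMT5 mouse 3 lowest. Its log2 fold changes were -0.35 ± 0.41, 0.56 ± 0.64 and 0.91 ± 0.64 in the same order of comparisons, and its adjusted p was 0.737 or more in each.

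Further ribosome biogenesis genes were counted beside the members, from lists of the remaining RNA polymerase I machinery, small and large subunit factors and snoRNP proteins. Of 122 such genes 118 were tested. Their mean was 6.20, 6.75, 5.96 and 6.69 log2 CPM with PRMT5 alone, 6.05, 6.26 and 6.27 with both transgenes and 5.66 with TCL1 alone. As for the members, Eµ-PRMT5 mice 2 and 4 were the highest and the Eµ-TCL1 mouse the lowest. None passed after adjustment in any comparison. By edgeR at an unadjusted p under 0.05, 16 were higher in Eµ-PRMT5 against Eµ-TCL1, where all genes gave 1.96%. In Eµ-PRMT5/TCL1 against Eµ-TCL1 there were 5, where all genes gave 1.75%. In the same comparisons 0 were lower, against 4.82% and 4.33% of all genes. The median log2 fold changes of the 118 genes were 0.79, 0.53 and, in Eµ-PRMT5/TCL1 against Eµ-PRMT5, -0.27, each nearer to 0 than the median of the members.

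Of the RNA polymerase I machinery, Polr1e was at 34.3, 66.5, 44.7 and 52.3 CPM with PRMT5 alone, 29.02, 27.6 and 40.9 CPM with both transgenes and 15.4 CPM with TCL1 alone. Polr2l, a small subunit shared by all 3 RNA polymerases, was at 11.4, 27.1, 13.9 and 23.6 CPM with PRMT5 alone, 17.1, 13.01 and 20.1 CPM with both transgenes and 2.97 CPM with TCL1 alone. Of the small subunit factors, 7 of 42 were higher at that unadjusted level in Eµ-PRMT5 against Eµ-TCL1, against 1.96% of all genes. Tsr2, a chaperone of a 40S protein, was at 25.98, 34.04, 16.4 and 34.5 CPM with PRMT5 alone, 24.1, 20.2 and 25.2 CPM with both transgenes and 7.30 CPM with TCL1 alone. Aatf, of the early 40S precursor, was at 108, 186, 77.96 and 122 CPM with PRMT5 alone, 69.8, 82.8 and 105 CPM with both transgenes and 42.99 CPM with TCL1 alone. The group also held Utp18, at 77.7, 132, 59.3 and 92.9 CPM with PRMT5 alone, 59.02, 69.2 and 70.5 CPM with both transgenes and 33.5 CPM with TCL1 alone. Wdr36, another part of the early particle, was at 62.1, 105, 70.7 and 138 CPM with PRMT5 alone, 67.5, 52.5 and 84.1 CPM with both transgenes and 33.5 CPM with TCL1 alone. These 4 had the smallest p of their list. Of the large subunit factors 6 of 49 were higher at that level in the same comparison, against the same 1.96% of all genes. Mak16, which acts early in 60S assembly, was at 53.8, 73.1, 40.6 and 63.8 CPM with PRMT5 alone, 24.9, 43.8 and 49.02 CPM with both transgenes and 14.9 CPM with TCL1 alone. Ftsj3, an rRNA methyltransferase, was at 70.02, 233, 104 and 339.6 CPM with PRMT5 alone, 116, 169 and 147 CPM with both transgenes and 44.1 CPM with TCL1 alone. In both the highest of the 8 values was in an Eµ-PRMT5 mouse. Wdr18, of the complex that releases rRNA spacers, was at 209.6, 265, 141 and 364 CPM with PRMT5 alone, 183, 212 and 211 CPM with both transgenes and 84.1 CPM with TCL1 alone. Xrn2, the nuclease that trims rRNA precursors, was at 293, 275, 195 and 297 CPM with PRMT5 alone, 223, 242 and 244 CPM with both transgenes and 104 CPM with TCL1 alone. Of the snoRNP proteins, Nop10, the fourth core protein of box H/ACA particles, was at 70.02, 141, 98.3 and 150.01 CPM with PRMT5 alone, 81.6, 86.9 and 162 CPM with both transgenes and 36.8 CPM with TCL1 alone. In each of these the Eµ-TCL1 mouse was the lowest of 8. They were named for a small unadjusted p in a comparison with that mouse, so its place follows largely from the choice.

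Cytosolic ribosomal proteins, the end of the same pathway, kept another order within the Eµ-PRMT5 mice. Their mean over 78 genes was 7.20, 7.56, 7.82 and 8.65 log2 CPM with PRMT5 alone, 7.79, 7.97 and 7.99 with both transgenes and 6.78 with TCL1 alone. Eµ-PRMT5 mouse 2, also among the 2 highest for the members, was the third lowest here. The median log2 fold change was -0.0023 in Eµ-PRMT5/TCL1 against Eµ-PRMT5, 1.22 in Eµ-PRMT5/TCL1 against Eµ-TCL1 and 1.17 in Eµ-PRMT5 against Eµ-TCL1. None passed after adjustment. In the comparisons with the Eµ-TCL1 mouse, 15 and 22 of 78 were higher at an unadjusted p under 0.05 by edgeR. All genes gave 1.75% and 1.96% in the same order. Ribosomal protein genes have many processed pseudogenes, so their counts are uncertain.

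Proliferation genes separated Eµ-PRMT5 mice 2 and 4, which were alike for the members. The mean of 25 proliferation genes was 5.36, 4.98, 5.98 and 8.57 log2 CPM with PRMT5 alone, 7.16, 6.40 and 7.24 with both transgenes and 5.76 with TCL1 alone. Eµ-PRMT5 mouse 2 was thus the lowest of 8 for proliferation and among the 2 highest for the members. Mki67, the gene of the Ki-67 antigen of dividing cells, was at 74.3, 27.9, 98.3 and 806 CPM in Eµ-PRMT5 mice 1 to 4, at 206, 124 and 404 CPM in Eµ-PRMT5/TCL1 mice 1 to 3 and at 129.5 CPM in the mouse with TCL1 alone. Its part in the level of the members was not tested.

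**Figure D4:**
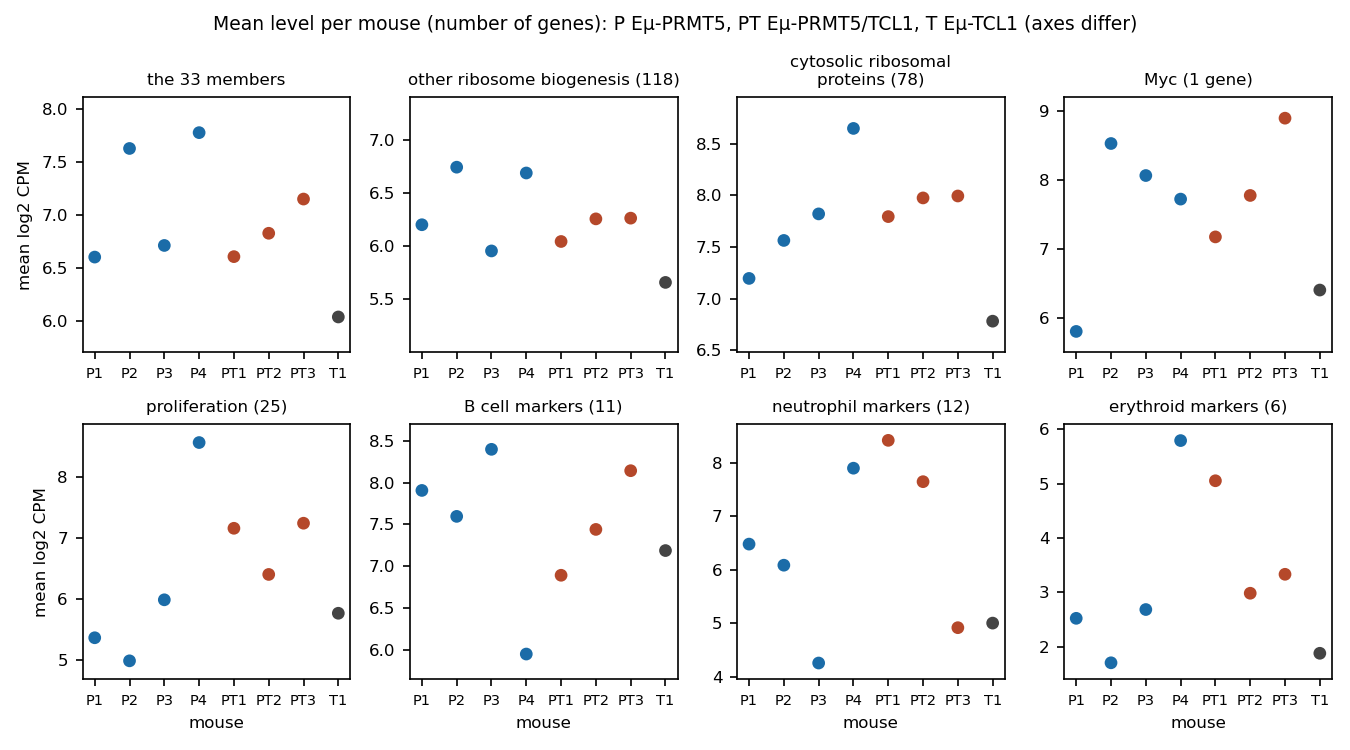
Mean log2 CPM per mouse (vertical axes, each with its own range) of the 33 members, other ribosome biogenesis genes, cytosolic ribosomal proteins, Myc, proliferation genes and markers of B cells, neutrophils and erythroid cells; blue Eµ-PRMT5 (P), red Eµ-PRMT5/TCL1 (PT), black Eµ-TCL1 (T). Members and other ribosome biogenesis genes are highest in P2 and P4 and lowest in T1, while proliferation genes are lowest in P2 (4.98) and B cell markers lowest in P4 (5.95).

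Markers of the cells that the isolation could hold moved between mice within each genotype. The summed level of 11 B cell markers, by library size, was 1793 to 8231 CPM with PRMT5 alone, 3819 to 9034 CPM with both and 5997 CPM with TCL1 alone, and all 11 had a value in every mouse. The lowest of these was Eµ-PRMT5 mouse 4, among the 2 highest for the members. The 12 neutrophil markers summed to 544 to 4696, 668 to 9230.3 and 762 CPM in the same order of genotypes, with the Eµ-TCL1 mouse near the low end. Macrophage and monocyte markers summed to 1072 to 3243, 992 to 7254 and 1210.0 CPM over 10 genes, of which C1qa, C1qb, C1qc and Marco had no value in some Eµ-PRMT5 mice. Of the erythroid markers, Alas2 had no value in Eµ-PRMT5 mouse 3 and with TCL1 alone, and Klf1 was at 0 in Eµ-PRMT5 mouse 1.

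The 6 plasma cell markers summed to 969 to 5315 CPM with PRMT5 alone, 651 to 3286 CPM with both and 2670.2 CPM with TCL1 alone. The 8 T cell markers with a row summed to 87.0 to 519, 74.6 to 123 and 153 CPM, and the 7 NK cell markers to 41.1 to 436, 24.5 to 72.0 and 36.6 CPM, with Eµ-PRMT5 mouse 3 highest for both. Cd4, Cd8a, Klrb1c, Klrd1, Gzma and Gzmb had no value in 1 mouse or more. The part of these cells in the level of the members was not tested.

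By position, several members overlap other genes, and reads shared with these were not measured. Exons of 14 members overlap exons on the other strand, among them Nop56, Gnl3, Nop14, Rrp9, Nhp2, Dkc1 and Wdr43. The introns of 6 members hold 11 annotated snoRNAs, the RNAs that guide the snoRNPs: Ncl holds Snord82, Nop56 holds Snord110, Nop58 holds Snord11 and Snord70, Wdr43 holds Snord53 and Snord92, and Tsr1 holds Snord91a. The sixth is Dkc1. The genes that host them belong to several roles. The Eµ-TCL1 mouse was the lowest for Ncl, Nop56, Nop58, Dkc1 and Wdr43, but not for Tsr1.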

How the data were processed

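Bulk RNA-seq of splenic B cells from 8 mice at ERC was used. The table deposited by the authors holds raw counts for each mouse by gene symbol, neither normalized nor pooled. The study's methods give preamplification from low RNA input and paired-end sequencing for these libraries, and the labels another library kit, which could change how low genes were sampled. The submitters' processing notes name GRCm38, Subread, featureCounts and DESeq2 1.20.0. The annotation, the use of strand and the meaning of NA are not given in the sources used here. NA was not read as 0, and 14072 symbols with a value in every mouse were used, in which the libraries held 95.2% to 99.5% of their counts. In 26 rows the symbol was a date, and these were kept as they were.

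Genes passing the edgeR 4.0.16 expression filter by group (13173) were scaled with TMM factors and tested in R 4.3.3 by the quasi-likelihood test, with Benjamini-Hochberg adjustment and 1 model over the 3 genotypes of the labels. The biological coefficient of variation was 0.483. Log2 CPM used a prior count of 2, and an adjusted p under 0.05 was the threshold. The SE is the size of the log2 fold change divided by the square root of F. The steps were tested on simulated data. Alternatives were DESeq2 1.42.0, other scalings, filters and prior counts, NA as 0, a fold change over 4 beside the adjusted p, only the 2 groups compared, the replicate number as a block and leaving out each mouse. Positions and exons are from GENCODE vM21, promoters from RefSeq (GRCm38.p6). Similar genes were found with BLAST 2.17.0 over coding sequence (at least 150 bases at 95% identity).

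The members and all lists were chosen with earlier results of these data known. Values per mouse were to be given for the member of highest and lowest level per kilobase in each role, members at an unadjusted p under 0.05 and the 3 highest and lowest fold changes of a comparison; the remaining members were added after their values were seen. Of other lists at most 4 genes at that level were named, by smallest p, with Myc, Mycn, Max, Mki67 and Prmt5. The summed level of the erythroid markers is not reported here.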

Additional observations from a re-analysis of the deposited data

How the results depend on the processing

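The number of members at an adjusted p under 0.05 was 0 in the 3 comparisons under every alternative run, DESeq2, other scalings and filters, and each mouse left out included. At an unadjusted p under 0.05, the count of members higher in Eµ-PRMT5/TCL1 against Eµ-TCL1 (6) was 2 by library size only and 16 with only the 2 groups compared, and 1 to 10 with a mouse left out. The counts were 9 to 20 for Eµ-PRMT5 against Eµ-TCL1 (13) and 0 to 5 lower for Eµ-PRMT5/TCL1 against Eµ-PRMT5 (0). No share of all genes was taken for the 9, so that count cannot be set against one. In the settings that follow the share of all genes at that level moved too. It was 1.75% for the 6, 1.04% for the 2, 8.68% for the 16 and 3.16% for the 10. For the 13 and the 20 it was 1.96% and 4.51%, and for the reported 0 and the 5 it was 1.21% and 2.65%. By library size only, Eµ-PRMT5 mouse 2 was highest for 17 members (10 with TMM). The set mean difference between Eµ-PRMT5/TCL1 and Eµ-TCL1 mice went from 0.82 to 1.11 with NA counted as 0, and kept its sign in all 3 comparisons. Among the fold changes of named members, 479 values under alternatives kept their sign and 19 changed it, the latter from reported values within 1 SE of 0. In Eµ-PRMT5/TCL1 against Eµ-TCL1, Rrp12 was 0.072 with NA counted as 0, and Utp20 -0.029 with upper-quartile factors and -0.16 by library size only. In Eµ-PRMT5 against Eµ-TCL1, Rrp12 was -0.0090 and -0.11 under the same scalings. Over the left-out mice Fbl ran from -0.26 to 0.38, Pes1 from -0.12 to 0.29 and Tsr1 from -0.15 to 0.22 in Eµ-PRMT5/TCL1 against Eµ-PRMT5. Utp20 ran from -0.029 to 0.19 in Eµ-PRMT5/TCL1 against Eµ-TCL1. In Eµ-PRMT5 against Eµ-TCL1, Rrp12 ran from -0.29 to 0.59, Rrs1 from -0.12 to 0.55 and Wdr12 from -0.035 to 0.59. The cause was not tested.

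With the replicate block in Eµ-PRMT5/TCL1 against Eµ-PRMT5, over the mice numbered 1 to 3, 0 members were called, as without it. The mice are different animals, and the correlations of same-numbered mice were -0.021, 0.15 and 0.16, so the numbers were not taken as pairs. With a single Eµ-TCL1 mouse, its own state and the genotype cannot be told apart. Each tested member had 69 counts or more in every mouse.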
